A study of Mus musculus with 5 samples.

Results

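The Cxcr3 and Cxcr6 chemokine axes were followed through every cell type of doxorubicin (DOX) treated 4T1 tumors. The members were taken by gene symbol, a rule that uses no measured value, and comprised the receptors Cxcr3 and Cxcr6, the Cxcr3 ligands Cxcl9, Cxcl10 and Cxcl11, and the Cxcr6 ligand Cxcl16. Of these 6 genes, 5 were listed among the 32285 features of the T cell libraries and all 6 among the 54987 features of the whole-tumor libraries, Cxcl11 being the one listed only in the latter. 4T1 is a mouse mammary cancer line used as a model of triple-negative breast cancer, and it was grown here as the Thy1.1-marked derivative in the mammary fat pad of female BALB/c mice, 12 weeks old per the labels. The 5 libraries of droplet single-cell RNA sequencing were T cells from DOX-sensitive tumors, T cells from DOX-resistant tumors, and whole tumor labelled control, sensitive or resistant. Mice of every group but the control had received doxorubicin at 5 mg/kg into the tail vein 3 times at 3-day intervals, and the control mice received saline. The source field of the whole-tumor library titled resistant named a sensitive tumor, so these libraries go by their titles here, as labelled control, sensitive or resistant. T cells made up 13.9% (control), 1.21% (sensitive) and 5.22% (resistant) of their cells with a lineage, and since which tumor each came from could not be settled, ratios among these 3 are given as differences between named libraries and not between responses to DOX. T cells of several tumors had been pooled and enriched by magnetic depletion of other cells, with antibody against Thy1.1 to remove cancer cells. The macrophages, dendritic cells, fibroblasts, cancer cells and natural killer (NK) cells described in the T cell libraries are therefore what this depletion left behind, and their numbers are not those of the tumor.

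CXCL9, CXCL10 and CXCL11 are small secreted proteins that interferon-gamma induces in macrophages, dendritic cells, fibroblasts, endothelium and tumor cells, and they draw activated T cells and NK cells through their shared receptor CXCR3. CXCL16 is made as a membrane protein that the proteases ADAM10 and ADAM17 can shed, and it binds CXCR6, a receptor known from effector and tissue-resident T cells, where contact with CXCL16-bearing myeloid cells is described to sustain them in tumors. The protease DPP4 trims the CXCR3 ligands and lowers their activity.

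In the mouse genome (mm10, GRCm38) the 3 Cxcr3 ligands lie side by side on the minus strand of chromosome 5, within 44139 bases from 92321347 to 92365485. Cxcl9 (ENSMUSG00000029417) spans chr5:92321347-92328079, Cxcl10 (ENSMUSG00000034855) spans chr5:92346638-92348889 and Cxcl11 (ENSMUSG00000060183) spans chr5:92359544-92365485. Cxcl11 is annotated as a polymorphic pseudogene, a gene that is intact in some mouse strains and broken in others, and the other 5 genes as protein coding. Cxcr3 (ENSMUSG00000050232) lies on the minus strand at chrX:101731535-101734269, Cxcl16 (ENSMUSG00000018920) on the minus strand at chr11:70453983-70459984 and Cxcr6 (ENSMUSG00000048521) on the plus strand at chr9:123806475-123811760. Genes on the other strand overlap 4 of the members. Cxcl10 and Cxcl11 lie inside Art3, Cxcr6 lies inside Fyco1, and Cxcl16 shares 552 bases with Zmynd15. Whether counting used the strand is not given in the sources used here, so reads of such partners cannot be told apart. Fyco1 stood at 30.6 and 22.8 CPM (counts per 1000000 UMIs of the cell type) in CD8+ T cells of the sensitive and resistant T cell library, Art3 at 20.03 and 27.5 in fibroblasts, and Zmynd15 at 128 and 104 in macrophages.

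The sequences upstream of Cxcl9 and Cxcl10 are shown because both genes were counted in the same cell types below. Of the 4 ligand genes, these 2 matched the RefSeq promoter table (GRCm38.p6). The 250 bases before the start site are given 5′ to 3′ on the minus strand, chr5:92328080-92328329 for Cxcl9 and chr5:92348890-92349139 for Cxcl10, with capitals marking motif matches.
Cxcl9: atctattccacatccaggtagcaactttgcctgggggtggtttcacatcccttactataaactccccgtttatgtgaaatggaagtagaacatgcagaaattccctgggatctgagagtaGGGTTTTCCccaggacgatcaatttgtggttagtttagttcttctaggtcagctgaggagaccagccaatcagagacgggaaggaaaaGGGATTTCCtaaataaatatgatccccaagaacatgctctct
Cxcl10: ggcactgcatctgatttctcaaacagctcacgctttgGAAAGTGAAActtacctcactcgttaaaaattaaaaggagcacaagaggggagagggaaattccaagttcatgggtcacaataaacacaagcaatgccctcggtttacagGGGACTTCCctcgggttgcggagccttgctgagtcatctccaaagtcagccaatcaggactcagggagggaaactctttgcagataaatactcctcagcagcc
Searched on both strands were a 9-base form of the NF-kB motif, GGGNNTTCC, the core of the interferon-stimulated response element (GAAA, any 2 bases, GAAA) and the gamma-activated site TTCNNNGAA, where N is any base. Other forms of these motifs were not searched, so the matches are no full count of sites. The Cxcl9 window held 2 NF-kB matches, GGGTTTTCC at 130 and GGGATTTCC at 42 bases before the start site. In the Cxcl10 window there was an NF-kB match, GGGACTTCC at 103 bases, and a response element core, GAAAGTGAAA at 213 bases before the start site. No gamma-activated site of these letters was present in either window. Among 32851 promoters of the table, windows of the same length held the NF-kB motif in 4.98%, the response element core in 2.98% and the gamma-activated site in 7.02%. A match describes letters and is no measure of binding.

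The T cell libraries held 3949 (sensitive) and 6116 (resistant) barcodes with 31690845 and 35908799 unique molecular identifiers (UMIs), each UMI being 1 counted RNA molecule. After filters on detected genes and mitochondrial UMIs, 3560 and 3250 cells were kept, with medians of 4980.5 and 5782 UMIs. The mitochondrial limit of 10% removed 45.7% of barcodes in the resistant and 5.90% in the sensitive T cell library. Whole-tumor libraries were smaller, with 488 (control), 269 (sensitive) and 263 (resistant) kept cells and 537293 to 1731940 UMIs in all. The T cell libraries shared 31 barcodes, 0.785% of the smaller. Cells were given a lineage by lists of marker genes that hold no member, and cells with markers of more than 1 lineage (64 and 86 in the T cell libraries) were set aside. In the T cell libraries the median marker was detected in 85.1% and 88.4% of T cells (sensitive, resistant), 95.8% and 96.9% of fibroblasts, 81.9% and 75.7% of macrophages or monocytes, and 80.0% and 80.9% of cancer cells, and in between 38.2% and 51.2% of dendritic cells, NK cells and neutrophils, whose marker lists hold genes of several subtypes. Each group had 1 library, so differences between libraries have no replicate check and no test over samples could be run. Levels are CPM, the UMIs of a gene summed over a cell type and scaled to all UMIs of that cell type. Ranges in brackets are 95% intervals, exact Poisson for CPM, exact binomial for shares and for ratios of CPM, and they cover counting error only, with the UMIs of 1 cell treated as independent.

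Cxcr3 was 2.20-fold higher in T cells of the sensitive than of the resistant T cell library, and the difference was present within CD8+ T cells. Over all 1979 and 1892 T cells its level was 97.0 CPM (91.1 to 103) against 44.0 CPM (40.2 to 48.2), a ratio of 2.20 (1.97 to 2.46). In CD8+ T cells, defined by a Cd8a or Cd8b1 UMI and no Cd4, it was 106 CPM (98.1 to 114) in 1347 cells against 40.2 CPM (36.3 to 44.5) in 1628 cells, a ratio of 2.63 (2.32 to 2.98). The intervals of both libraries lay apart in either population. A Cxcr3 UMI was seen in 31.5% of sensitive and 17.1% of resistant CD8+ T cells. Once each cell had been reduced at random to 1000 UMIs, so that depth was equal, 10.4% and 4.37% were positive, and the share ratio was 2.38 (1.80 to 3.13). Among fibroblasts, taken to lack this receptor, 1.31% and 0.641% of cells held a Cxcr3 UMI. Their median depths were 13272 and 14225 UMIs, against 3993 and 4562 in T cells. The fibroblast Cxcr3 ratio was 3.40 (1.11 to 13.9), from 17 and 4 UMIs. The part of free RNA in the T cell and fibroblast values was not tested. With the mitochondrial limit raised to 20%, the CD8+ ratio was 2.51.

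In CD4+ T cells Cxcr3 stood at 45.8 CPM (33.4 to 61.2) in 181 sensitive and 59.3 CPM (28.4 to 109) in 45 resistant CD4+ cells, a ratio of 0.772 with an interval (0.383 to 1.72) that includes 1. Its share ratio at equal depth was 1.38 (0.318 to 6.02), and whether CD4+ and CD8+ T cells differ in the ratio was not tested. Regulatory T cells (Foxp3 with no Cd8 UMI) had 97.1 CPM in 48 cells and 114 CPM in 12 cells, the latter from 5 UMIs. γδ T cells, with a Trdc and a γ constant region UMI, had 196 CPM (147 to 255) in 67 cells and 163 CPM (70.2 to 321) in 11 cells, with overlapping intervals. Within the sensitive library γδ T cells stood above CD8+ T cells, whose level did not differ from that of regulatory T cells beyond counting error, and CD4+ cells were lowest. In NK cells Cxcr3 was at 95.8 CPM from 28 UMIs in 51 sensitive cells and at 15.6 CPM from 4 UMIs in 32 resistant cells, a ratio of 6.16 (2.16 to 24.2) that rests on fewer than 100 UMIs.

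Cxcr6 was detected in most CD8+ T cells of both libraries and differed less between them. It was at 792 CPM (775 to 809) in sensitive and 599 CPM (585 to 614) in resistant T cells, a ratio of 1.32 (1.28 to 1.37). In CD8+ T cells the levels were 875 CPM (853 to 898) and 603 CPM (588 to 619), a ratio of 1.45 (1.398 to 1.504), which fell short of the 1.5-fold used here to count genes as higher or lower. The shares of CD8+ T cells with a Cxcr6 UMI were 86.9% and 86.1%. At equal depth they were 55.8% and 43.4%, a ratio of 1.29 (1.20 to 1.39). In fibroblasts 3.68% and 5.77% of cells held a Cxcr6 UMI.

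Among the other lymphocytes, γδ T cells of the sensitive library carried 1260 CPM of Cxcr6 (1131 to 1400) and those of the resistant library 813 CPM (581 to 1108), or 1.55-fold (1.11 to 2.21). CD4+ cells had 550 CPM (505 to 599) and 688 CPM (568 to 825), a ratio of 0.7998 (0.653 to 0.986) in the opposite direction. Regulatory T cells were low at 190 and 114 CPM, and 6 of 48 and 2 of 12 of them held a UMI. NK cells had 397 CPM (328 to 476) and 121 CPM (81.9 to 171), a ratio of 3.29 (2.20 to 5.07). In the sensitive library 5 NK cells held 44.8% of these UMIs, and the share ratio at equal depth, 1.88 (0.757 to 4.68), includes 1.

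**Figure D1:**
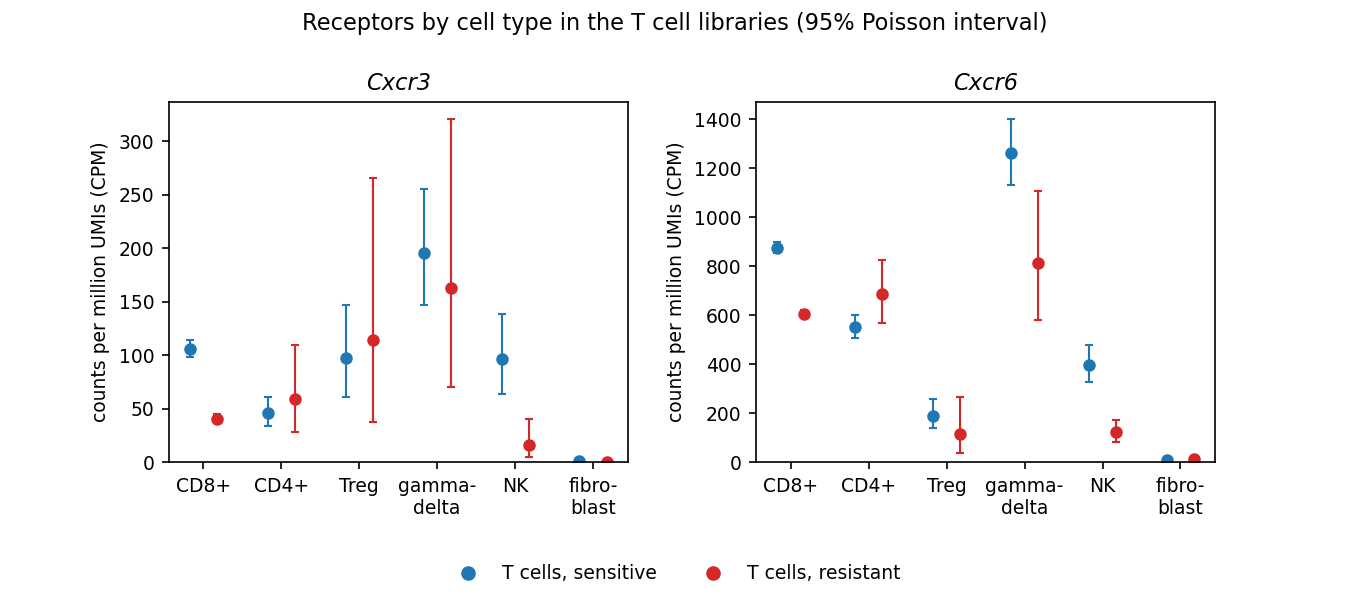
Level of Cxcr3 (left) and Cxcr6 (right) in CPM (counts per 1000000 UMIs) by cell type in the sensitive (blue) and resistant (red) T cell library, each point being 1 library with its 95% Poisson interval. Cxcr3 in CD8+ T cells stands at 106 against 40.2 CPM, while the intervals of the libraries overlap in CD4+, regulatory and γδ T cells.

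The receptor mix differed as well. Of all Cxcr3 and Cxcr6 UMIs in CD8+ T cells, Cxcr3 made up 10.8% (10.0 to 11.6) in the sensitive and 6.25% (5.66 to 6.89) in the resistant library. Cxcr6 was seen in 86.3% of Cxcr3+ and 87.2% of Cxcr3- CD8+ T cells of the sensitive library, and in 87.8% and 85.7% of the resistant library, shares that lie near the ceiling at full depth and so show neither a link between the receptors nor the lack of one. Dendritic cells held Cxcr3 only, 13 UMIs in 6 of 26 sensitive cells and 11 UMIs in 8 of 47 resistant cells, all of them in the dendritic cells with Xcr1 or Clec9a, markers of the cross-presenting type. Their Cxcr6 count was 0 in both libraries, which allows a level of up to 9.32 and 5.72 CPM (3 counts of the total). Cancer cells held 13 and 22 Cxcr3 UMIs at medians of 20365 and 21367 UMIs a cell, or 4.73 and 6.99 CPM.

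CD8+ T cells were then divided into states, which overlap and use no member gene. In both libraries Cxcr3 was low in cells with Pdcd1 and Havcr2 (PD-1 and TIM-3, receptors of T cell exhaustion). It stood at 32.5 CPM (23.7 to 43.5) in the 216 such cells of the sensitive library against 125 CPM (116 to 135) in the others, and at 15.03 CPM (10.7 to 20.5) in 312 cells against 49.96 CPM (44.8 to 55.5) in the resistant library. Cells with Itgae (CD103, an integrin of epithelial retention) showed the reverse, 176 against 93.3 CPM in the sensitive and 85.6 against 33.7 CPM in the resistant library. Cycling cells were lower, at 67.8 against 114 CPM and 28.0 against 44.6 CPM. Cells with Gzmd or Gzmf, granzymes of prolonged stimulation, held 2 Cxcr3 UMIs in 28 sensitive cells and 21 UMIs (19.1 CPM) in 112 resistant cells.

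Between libraries the Cxcr3 CPM was higher on the sensitive side within most of these states. The sensitive over resistant ratio was 2.17 (1.38 to 3.40) in Pdcd1+ Havcr2+ cells and 2.50 (2.19 to 2.86) in the rest. It was 2.42 (1.73 to 3.38) in cycling and 2.55 (2.22 to 2.93) in other cells, and 2.06 (1.60 to 2.65) in Itgae+ and 2.77 (2.39 to 3.21) in Itgae- cells. The Pdcd1+ Havcr2+ value rests on 45 and 40 UMIs, under the minimum of 100. Share ratios at equal depth were 1.81 (0.490 to 6.65) in Pdcd1+ Havcr2+, 2.84 (0.889 to 9.09) in cycling and 1.395 (0.826 to 2.36) in Itgae+ cells, all of which include 1, and 2.74 (1.98 to 3.80) in Itgae- cells, which excludes it. Gzmd+ or Gzmf+ cells went the other way at 0.573, with an interval (0.0651 to 2.34) that includes 1. Naive or central memory cells (at least 3 genes of a list that includes Ccr7, Lef1 and Tcf7) gave 1.44 (0.852 to 2.50), which includes 1, from 49 and 32 cells. Interferon-stimulated cells (at least 4 of Ifit1, Ifit2, Ifit3, Isg15, Rsad2 and Mx1, the last not among the features of these libraries) had 208 CPM (164 to 261) in 70 sensitive cells and 43.6 CPM (25.4 to 69.8) in 60 resistant cells, a ratio of 4.78 (2.80 to 8.63) from 76 and 17 UMIs, also under the minimum. The remaining CD8+ cells were at 99.8 CPM in the sensitive library, below this state beyond counting error, and at 40.1 CPM in the resistant library, within the interval of the state. Whether the libraries differ in this was not tested.

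Cxcr6 followed the states differently. It was low in cycling cells (489 against 956 CPM in the sensitive, 396 against 678 CPM in the resistant library) and in naive or central memory cells (434 and 398 CPM). In Pdcd1+ Havcr2+ cells it was higher than in the rest in the sensitive library, 1055 CPM (1002 to 1111) against 828 CPM (804 to 853), and close to the rest in the resistant library, 591 CPM (562 to 621) against 608 CPM (590 to 627). The ratio between libraries within Pdcd1+ Havcr2+ cells was 1.79 (1.66 to 1.92), against 1.36 (1.30 to 1.42) in the other CD8+ T cells. Gzmd+ or Gzmf+ cells gave 943 and 488 CPM, a ratio of 1.93 (1.62 to 2.30). Itgae+ cells stood at 916 against 868 CPM in the sensitive library, with overlapping intervals, and above the rest at 670 CPM (624 to 718) against 594 CPM (577 to 611) in the resistant library.

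**Figure D2:**
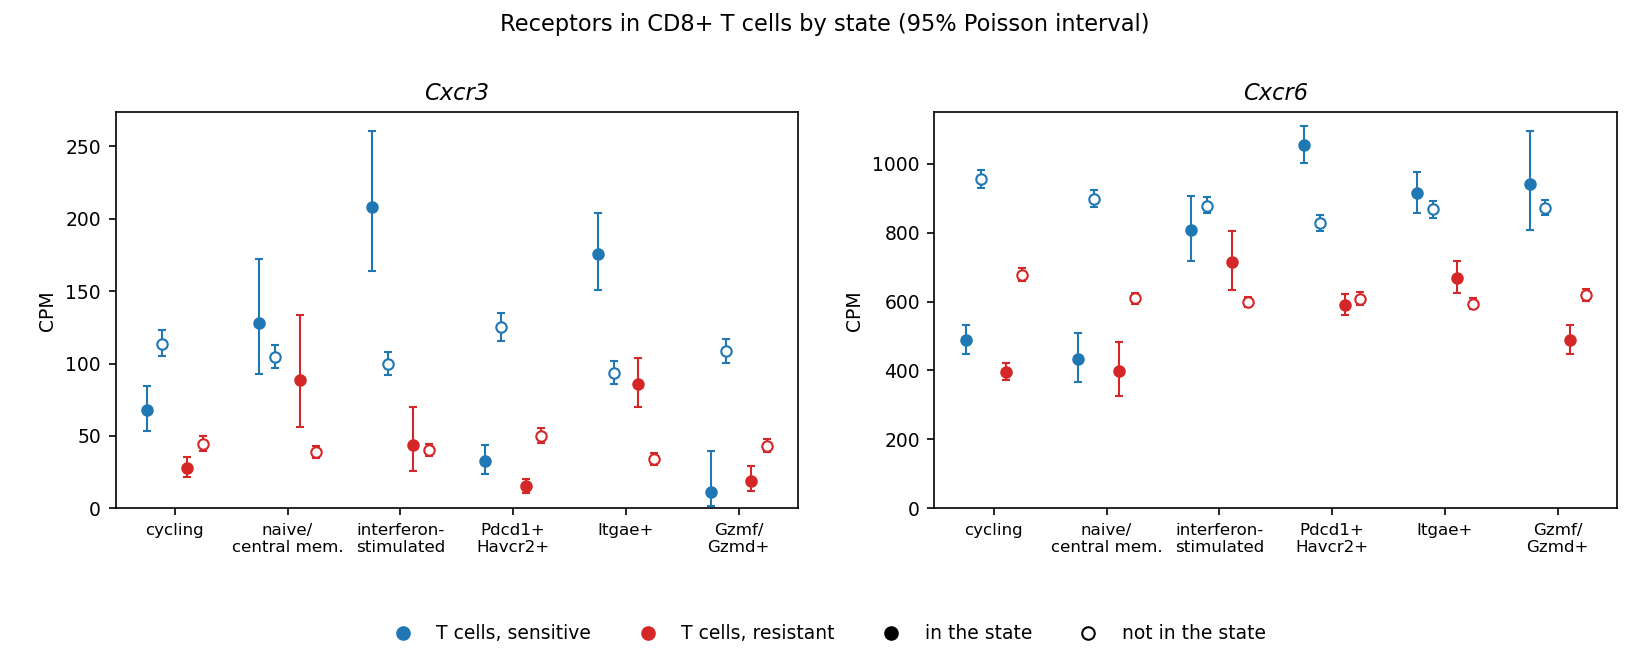
Level (CPM) of Cxcr3 (left) and Cxcr6 (right) in CD8+ T cells inside (filled) and outside (open) each state, in the sensitive (blue) and resistant (red) T cell library, with 95% Poisson intervals. Pdcd1+ Havcr2+ cells lie below the other cells for Cxcr3 in both libraries (32.5 against 125 CPM and 15.03 against 49.96 CPM), and above them for Cxcr6 in the sensitive library (1055 against 828 CPM).

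Cells with a Cxcr3 UMI were compared with cells without one inside each library. Ccr2, the receptor for the monocyte attractant CCL2, was higher in Cxcr3+ CD8+ T cells of both, 84.2 against 53.7 CPM (1.57-fold, 1.29 to 1.90) in the sensitive and 42.8 against 15.9 CPM (2.70-fold, 2.004 to 3.61) in the resistant library. Ccr7, which guides naive and memory cells to lymph nodes, went opposite ways, 1.57-fold (1.22 to 2.01) and 0.610-fold (0.418 to 0.867). Of the 6 other chemokine receptors with at least 100 UMIs, 2 were at least 1.5-fold higher and 1 lower in each library, the remaining ones being Cx3cr1 (0.594-fold, sensitive) and Cxcr4 (1.77-fold, resistant). Over all genes 3.49% were that much higher and 4.15% lower in the sensitive library, and 2.67% and 3.64% in the resistant library. Among 7 measured genes known as inducers or companions of these receptors, such as Tbx21 (T-bet) and Runx3, none was 1.5-fold higher in Cxcr3+ cells, and Eomes was lower in the sensitive library (0.530-fold, 0.366 to 0.754). Zfp683 (Hobit, a factor of tissue-resident lymphocytes), under the minimum of 100 UMIs, was at 2.09-fold (1.17 to 3.75) and 2.90-fold (1.40 to 5.85). Cxcr3+ cells were somewhat deeper, with medians of 4403 against 3931 UMIs and 5046 against 4590 UMIs, and the part of depth in these values was not tested.

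Set beside all genes, Cxcr3 was the 1 of 3 members with at least 100 UMIs that lay 1.5-fold higher in sensitive T cells, where 7.65% of 8969 genes did and 2.3% were as much lower. In CD8+ T cells it was again Cxcr3 alone of 3, against 5.49% of 8392 genes higher and 2.38% lower. Other chemokine receptors leaned the same way. In T cells 5 of 7 were higher and none lower, among them Ccr2 at 3.59-fold (3.13 to 4.12), Ccr8 at 2.88-fold, Cxcr4 at 2.39-fold and Ccr7 at 1.97-fold, with a list median of 1.97 where the median over all genes was 1.10. In CD8+ T cells 4 of 6 were higher, Ccr2, Cxcr4 and Ccr8 among them, with a median of 1.74. The T cell libraries differed in subset makeup, with 181 against 45 CD4+, 48 against 12 regulatory and 67 against 11 γδ cells, and the part of this in the values over all T cells was not tested.

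Genes of interferon-gamma signalling, the pathway that induces the Cxcr3 ligands, also leaned higher in sensitive T cells. In T cells 5 of 10 genes were at least 1.5-fold higher (7.65% of all genes) and none lower (2.3%), with a median of 1.42 against 1.10 over all genes. Ifng, the cytokine gene itself, stood at 349 against 219 CPM (1.59-fold, 1.51 to 1.68) in T cells and at 403 against 208 CPM (1.94-fold, 1.83 to 2.06) in CD8+ T cells. Ifngr1, Irf1, Jak2 and Gbp2 were the others in T cells, at 1.51 to 1.56-fold. All 5 T cell ratios lay near the 1.5-fold cutoff. They were not scaled by the median gene ratio of 1.10, which would lower them, and no count was made with that scaling. In CD8+ T cells 4 of 10 were higher (Ifng, Gbp2, Irf1 and Ifngr1), against 5.49% of all genes, with a median of 1.25 against 1.09. Of the receptor inducers, Prdm1 (1.70-fold) and Zfp683 (1.69-fold) were higher in T cells, 2 of 8 measured against 7.65% of all genes, with a list median of 1.19 against 1.10. In CD8+ T cells 2 of 7 were higher, against 5.49% of all genes and with a median of 1.23 against 1.09. These were Prdm1 at 1.75-fold (1.42 to 2.17) and Tbx21, the T-bet gene whose product drives Cxcr3, at 1.59-fold (1.41 to 1.79). Runx3 leaned the other way without reaching the fold, at 0.761 (0.713 to 0.813) in T cells and 0.759 (0.704 to 0.817) in CD8+ T cells.

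Turning to the ligands, Cxcl9 was held by a small fraction of macrophages, fibroblasts, dendritic cells and cancer cells, and its difference between libraries changed direction with the cell type. In macrophages or monocytes it was lower in the sensitive library, 153 CPM (138 to 170) in 210 cells against 283 CPM (261 to 307) in 179 cells, a ratio of 0.540 (0.472 to 0.616). A UMI was found in 21.4% (16.1 to 27.6) and 31.3% (24.6 to 38.6) of them, a share ratio of 0.685 (0.489 to 0.960), and at equal depth it was 0.645 (0.341 to 1.22), which includes 1. In fibroblasts it was higher, 195 CPM (187 to 202) in 842 cells against 116 CPM (110 to 123) in 624 cells, a ratio of 1.68 (1.57 to 1.80). The fibroblast level rested on few cells, since 9.62% and 8.97% were positive, 5 cells held 65.1% and 60.2% of the UMIs, and 1 sensitive cell held 667 UMIs. Without the 5 highest cells of each library the ratio was 1.47 (1.32 to 1.64), under the 1.5-fold threshold. At equal depth the share of positive fibroblasts was 2.29% and 3.05%, which did not differ beyond counting error (ratio 0.750, 0.400 to 1.40).

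Cancer cells also carried more Cxcl9 in the sensitive library, 51.3 CPM (43.2 to 60.5) in 120 cells against 19.1 CPM (14.5 to 24.5) in 149 cells, a ratio of 2.69 (1.98 to 3.70). Positive were 18 of 120 and 17 of 149 cells, a share ratio of 1.31 (0.709 to 2.44) that includes 1, and 5 cells held 65.2% and 65.0% of the UMIs. Dendritic cells had 127 CPM (91.4 to 173) in 26 cells and 85.8 CPM (62.6 to 115) in 47 cells, with a ratio of 1.48 (0.947 to 2.32) that includes 1. Without the 5 highest cells it was 0.568, with a wide interval (0.0108 to 7.07). Of these UMIs 40 of 41 and 38 of 45 were in Xcr1+ or Clec9a+ dendritic cells. The few endothelial cells reached 701 CPM (6 cells) and 2412 CPM (8 cells), 1 resistant cell holding 271 of 334 UMIs. T cells gave the background, with 20 and 6 Cxcl9 UMIs in all, or 1.98 and 0.550 CPM.

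Cxcl10 was spread over more cell types. Its level in macrophages or monocytes was 148 CPM (133 to 164) and 183 CPM (165 to 202), a ratio of 0.809 (0.697 to 0.938), with UMIs in 15.2% (10.7 to 20.8) and 33.5% (26.7 to 40.9) of cells. Macrophages with C1q genes had 129 and 181 CPM (0.709, 0.599 to 0.841) and those low in C1q 276 and 188 CPM (1.47, 1.07 to 2.002), in the latter from 3 and 11 positive cells. Over both together the interval of the ratio included 1 without the 5 highest cells of each library (0.845, 0.680 to 1.05). In fibroblasts it was 112 CPM (106 to 117) against 31.1 CPM (27.9 to 34.6), a ratio of 3.58 (3.18 to 4.04), and 2.79 (2.38 to 3.27) without the 5 highest cells. Weighting each fibroblast equally gave 2.22. The shares of positive fibroblasts were 9.03% and 11.2%, and at equal depth their ratio of 1.43 (0.695 to 2.95) included 1.

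Neutrophils of the T cell libraries reached 939 CPM (842 to 1044) in 144 sensitive and 274 CPM (231 to 324) in 170 resistant cells, a ratio of 3.42 (2.80 to 4.19). One sensitive neutrophil held 140 of 340 UMIs, and without the 5 highest cells the ratio was 1.95 (1.40 to 2.72). At equal depth 11.1% and 11.2% of neutrophils were positive, a ratio of 0.994 (0.531 to 1.86). Cancer cells had 68.4 CPM (59.0 to 78.9) and 49.6 CPM (42.1 to 58.0), a ratio of 1.38 (1.11 to 1.72) that became 0.881 when each cell was reduced to 1000 UMIs, with 5 cells holding 77.7% and 78.2% of the UMIs. Dendritic cells held no Cxcl10 UMI among 26 and 47 cells, which allows up to 11.5% and 6.38% of cells with a UMI (3 counts of the total).

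T cells themselves carried Cxcl10, 27.4 CPM (24.3 to 30.8) on the sensitive and 34.4 CPM (31.0 to 38.1) on the resistant side, with 3.13% and 3.70% of cells positive. The level was higher in the interferon-stimulated CD8+ cells, which had 244 CPM (196 to 300) and 523 CPM (454 to 600) against 12.4 and 15.9 CPM in the other CD8+ cells. That state held 89 of the 277 T cell UMIs of the sensitive and 204 of the 375 of the resistant library. In it 18 of 70 sensitive and 23 of 60 resistant cells were positive, and 1 resistant cell held 106 of its 204 UMIs. Itgae+ CD8+ cells were higher in the sensitive library, at 86.5 against 34.1 CPM (2.54-fold, 1.73 to 3.78), and Itgae- cells lower, at 14.1 against 36.9 CPM (0.382-fold, 0.295 to 0.490). At equal depth the share ratios were 1.63 (0.602 to 4.397) and 0.602 (0.295 to 1.23), both of which include 1. In γδ T cells 76 UMIs lay in 4 of 67 sensitive and 14 UMIs in 1 of 11 resistant cells.

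Cxcl16 was the ligand detected in most macrophages, and there it did not differ between libraries beyond counting error. It stood at 566 CPM (536 to 597) and 573 CPM (541 to 606), a ratio of 0.988 (0.913 to 1.07), with 83.8% and 85.5% of macrophages or monocytes positive. Macrophages with at least 2 of the 3 C1q genes, complement genes of mature tissue macrophages, had more than those low in C1q, 620 against 208 CPM in the sensitive and 651 against 294 CPM in the resistant library. Dendritic cells had 307 CPM (250 to 374) and 296 CPM (251 to 346), a ratio of 1.04 (0.7996 to 1.35). Those with Ccl22 or Ccr7, genes of mature migrating dendritic cells, carried 703 CPM (6 cells) and 827 CPM (9 cells).

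In fibroblasts and cancer cells Cxcl16 was higher in the sensitive library. Fibroblasts had 103 CPM (97.6 to 109) against 51.3 CPM (47.1 to 55.8), a ratio of 2.01 (1.82 to 2.22), and were positive in 44.5% and 34.9% of cells. Here the share at equal depth moved with the level, 6.86% against 3.05% (ratio 2.25, 1.35 to 3.74). Cancer cells had 58.6 CPM (49.9 to 68.4) against 22.6 CPM (17.6 to 28.5), a ratio of 2.60 (1.95 to 3.48). T cells held 27 and 34 UMIs, or 2.67 and 3.12 CPM, a ratio of 0.856 (0.497 to 1.46) that includes 1.

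**Figure D3:**
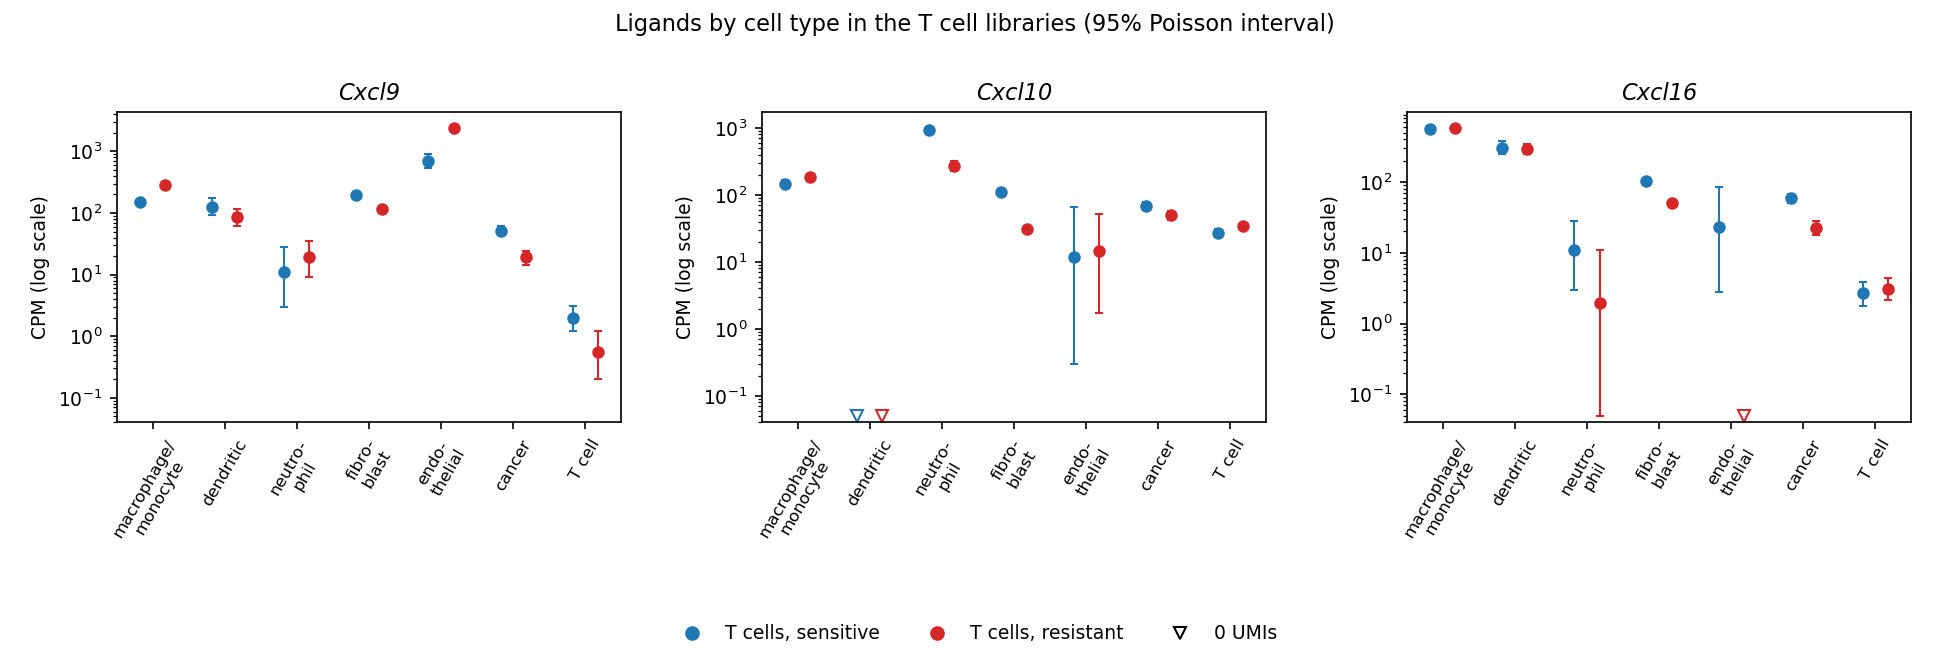
Level (CPM, log scale) of Cxcl9, Cxcl10 and Cxcl16 by cell type in the sensitive (blue) and resistant (red) T cell library with 95% Poisson intervals, open triangles marking 0 UMIs. Cxcl16 in macrophages is level between libraries (566 and 573 CPM), while in fibroblasts the CPM of all 3 ligands is higher in the sensitive library. Of their shares of positive fibroblasts at equal depth, only that of Cxcl16 differs beyond counting error.

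The cells that supplied each ligand's UMIs differed accordingly. Fibroblasts, 24.8% and 20.1% of the cells with a lineage, held 80.8% (sensitive) and 54.7% (resistant) of Cxcl9 UMIs, and macrophages or monocytes, 6.18% and 5.76% of the cells, held 11.03% and 25.6%. Endothelial cells held 1.83% and 14.5%, from 6 and 8 cells. For Cxcl10 fibroblasts held 56.4% and 24.3%, macrophages 12.99% and 27.3%, T cells 10.3% and 26.9%, and neutrophils 12.7% and 10.2%. Cxcl16 UMIs came mainly from macrophages (44.1% and 59.3%) and fibroblasts (46.1% and 27.7%). For the receptors T cells held 92.9% and 90.9% of Cxcr3 and 97.1% of Cxcr6 UMIs in both. These shares are of leftover cells after T cell enrichment, and fewer cells of a type and less RNA per cell both enter them.

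Against all genes of the same cells, fibroblasts had 3 of 4 measured members 1.5-fold higher (Cxcl9, Cxcl10 and Cxcl16), where 5.65% of 10081 genes were, and Cxcr6 lower (0.548, 0.412 to 0.725), where 2.49% were. That fibroblast Cxcr6 level was 6.41 and 11.7 CPM, far under the T cell level. Fibroblast Cxcl9 was at 1.47, under the fold, without the 5 highest cells of each library. In macrophages or monocytes Cxcl9 was the 1 of 3 members that was lower (2.3% of 4612 genes), and none was higher (4.71%). Among cancer cells 2 of 3 were higher, Cxcl9 and Cxcl16 (4.3% of 5927 genes), and none lower (2.43%). In neutrophils Cxcl10 was the only member measured with enough UMIs, and it was higher (10.7% of 1042 genes, with 8.45% lower).

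**Figure D4:**
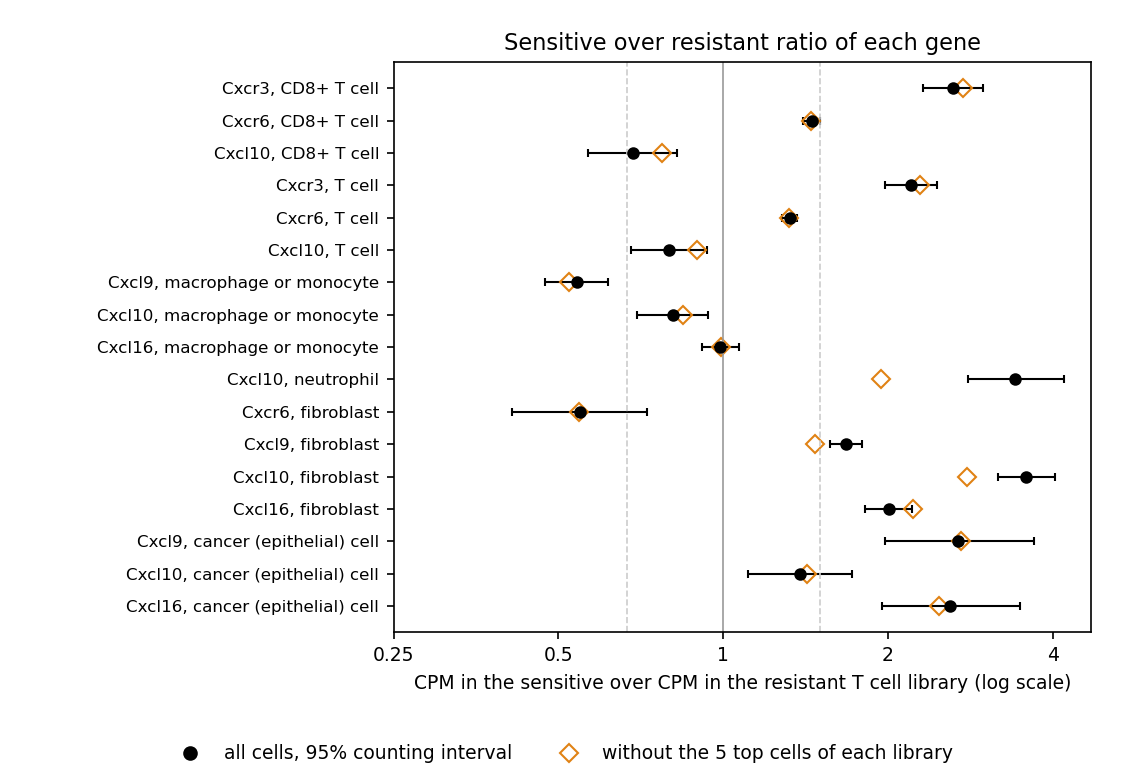
Ratio of CPM in the sensitive over the resistant T cell library for each member and cell type with at least 100 UMIs (log axis, black, with 95% counting interval), and the same ratio without the 5 cells holding most UMIs of that gene in each library (orange). The gray line marks equal levels and the dashed lines a 1.5-fold difference. Cxcr3 keeps its ratio (2.63 and 2.75 in CD8+ T cells), while Cxcl10 in neutrophils goes from 3.42 to 1.95.

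Cxcl10 was seen in a larger share of Cxcl9+ than of Cxcl9- cells, though most Cxcl9+ cells held no Cxcl10 UMI. In fibroblasts Cxcl10 was seen in 28.4% (18.9 to 39.5) of Cxcl9+ cells and 6.96% (5.26 to 9.01) of Cxcl9- cells of the sensitive library, and in 25.0% (14.4 to 38.4) and 9.86% (7.53 to 12.6) of the resistant library. Cancer cells of the sensitive library gave 38.9% (17.3 to 64.3) against 10.8% (5.51 to 18.5), with overlapping intervals. Those of the resistant library gave 41.2% (18.4 to 67.1) against 10.6% (5.92 to 17.2). For macrophages the shares were 24.4% against 12.7% and 44.6% against 28.5%, with overlapping intervals. Cxcl9+ fibroblasts were deeper, with medians of 23210 against 12756 UMIs and 21858 against 13586 UMIs. Cxcl9+ cancer cells were deeper too, at 33829 against 19130 and 26831 against 19041 UMIs. The same held for Cxcl9+ macrophages, at 12845 against 10035 and 13482 against 9567 UMIs. Depth moves with these shares, and its part was not tested.

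Genes that interferon-gamma induces accompanied Cxcl9 in fibroblasts when levels per UMI were compared. In the sensitive library 4 of 9 measured genes of the list were at least 1.5-fold higher in Cxcl9+ than in Cxcl9- fibroblasts, where 7.58% of all genes were, and the list median was 1.38 against 0.974. Among these were Gbp2 (284 against 73.4 CPM, 3.87-fold, 3.49 to 4.29), the feedback inhibitor Socs1 (2.18-fold) and Irf8 (2.01-fold). In the resistant library 5 of 8 were higher, against 9.3% of all genes, among them Gbp2 at 2.61-fold (2.22 to 3.06) and Socs1 at 1.76-fold, with a median of 1.57 against 0.9799. The receptor gene Ifngr1 was lower in Cxcl9+ fibroblasts of both, at 0.664-fold (0.569 to 0.772) and 0.543-fold (0.434 to 0.674).

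Among macrophages Ciita, the master regulator of MHC class II genes, was higher in Cxcl9+ cells of both libraries. Of 11 measured genes 3 were higher in Cxcl9+ cells of the sensitive library (8.73% of all genes), among them Ciita at 6.45-fold (4.14 to 10.3) and Socs1 at 1.88-fold, and Jak2 was lower (0.627-fold). In the resistant library 0 of 8 were higher (7.32% of all genes) and the list median was 0.924 against 0.9903, but Ciita, whose 55 and 42 UMIs fell just short of the minimum of 100, was at 2.17-fold (1.43 to 3.33). The difference between the libraries was not tested. Between libraries, macrophages had 1 of 11 genes of the list higher, Jak2 at 2.19-fold (1.60 to 3.02), against 4.71% of all genes, none lower (2.3%), and a median of 0.917 against 1.02. Irf1 was at 118 and 139 CPM and Gbp2 at 120 and 131 CPM there.

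In fibroblasts 4 of 10 genes of the list were higher in the sensitive library (5.65% of all genes), Irf1 at 106 against 52.3 CPM (2.02-fold, 1.84 to 2.23), Socs1 at 1.98-fold, Irf8 at 1.83-fold and Gbp2 at 1.69-fold, with a median of 1.42 against 1.06 over all genes. Cancer cells had 3 of 9 higher (4.3% of all genes), Gbp2 at 359 against 195 CPM (1.84-fold, 1.66 to 2.04), Ifngr2 at 1.71-fold and Ifngr1 at 1.69-fold, with a median of 1.26 against 1.05. None of these lists had a gene 1.5-fold lower. Among genes that process or bind the ligands, Adam10 and Adam17 did not reach 1.5-fold in macrophages, fibroblasts or cancer cells. Adam10 in cancer cells came close, at 0.674-fold (0.531 to 0.852), an interval that excludes 1. Dpp4 was lower in sensitive fibroblasts, at 58.0 against 109 CPM (0.533-fold, 0.486 to 0.583).

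For each member the genes with the most similar profile were taken, by Pearson correlation of log2(CPM + 10) over the 15 cell type and library groups with at least 50 cells, in which T cells as a whole contain their subsets. Cxcr3 was nearest to Cysltr2 (r = 0.981), Pim2, Tmc8, Ccsap and Jakmip1. Cxcr6 was nearest to Gimap1 (0.992), Ptprcap, Sh2d2a, Il27ra and Ubxn11. Cxcl16 was nearest to Tmem106a (0.974), Lgmn, P2rx4, Mmp13 and Tmem141. Cxcl9 was nearest to Sash1 (0.960), Adam15, Slc6a8, Lhfpl2 and Sord, and Cxcl10 to Gcnt2 (0.926), Slc16a10, Osbpl9, Edem2 and Sgk3. These groups differ in depth and share libraries, so the correlations describe the profiles only.

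The whole-tumor libraries brought in Cxcl11 and a library labelled control, at far lower depth. Their cells were mostly neutrophils, 333 (control), 231 (sensitive) and 141 (resistant), with median depths of 1468, 1455 and 2133 UMIs. Cxcl10 in neutrophils was lowest in the control-labelled and highest in the resistant-labelled library, with 5, 36 and 82 UMIs, or 7.58 CPM (2.46 to 17.7), 91.7 CPM (64.2 to 127) and 243 CPM (194 to 302). The sensitive-labelled library was 12.1-fold (4.73 to 39.5) and the resistant-labelled library 32.1-fold (13.2 to 101) above the control-labelled one, and the sensitive-labelled library was at 0.377 (0.247 to 0.564) of the resistant-labelled one. Positive cells numbered 4 of 333, 11 of 231 and 12 of 141, and 1 resistant-labelled cell held 30 of its 82 UMIs. In all, 5 cells held 80.6% of the sensitive-labelled and 82.9% of the resistant-labelled UMIs.

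Cxcl11 was counted in cancer cells with 35 UMIs in 3 of 29 control cells, 33 of them in 1 cell, and with 32 UMIs in 8 of 44 resistant-labelled cells. The 4 cancer cells of the sensitive-labelled library held none, which allows up to 219 CPM. Neutrophils held 0, 2 and 6 Cxcl11 UMIs, the last in 3 cells (17.8 CPM), where the 0 of the control library allows up to 4.55 CPM. Macrophages or monocytes held 6 UMIs in 3 of 43 resistant-labelled cells and none in 16 control or 8 sensitive-labelled cells. Cxcl11 kept company with Cxcl9, since 3 of 3 Cxcl9+ cancer cells of the control library and 4 of 6 of the resistant-labelled library also held Cxcl11, against 0 of 26 and 4 of 38 Cxcl9- cancer cells. The Cxcl9+ cells were deeper, with medians of 39471 against 12512 UMIs and 23048 against 18217 UMIs, and the part of depth was not tested.

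The other ligands were sparse there. Cxcl16 in macrophages or monocytes stood at 301 CPM (189 to 456) in 16 control cells, 222 CPM (81.4 to 483) in 8 sensitive-labelled cells and 578 CPM (490 to 677) in 43 resistant-labelled cells, the last 1.92-fold (1.22 to 3.15) above the control-labelled library. Cancer cells carried 65.3 CPM (45.5 to 90.8) of Cxcl9 in the control-labelled and 29.4 CPM (19.2 to 43.0) in the resistant-labelled library, a ratio of 0.450 (0.260 to 0.769). These were 35 UMIs in 3 of 29 cells and 26 UMIs in 6 of 44, and the ratio of the shares, 1.32 (0.358 to 4.86), includes 1. Macrophage Cxcl9 was 12 UMIs in 1 resistant-labelled cell. Cxcl10 in cancer cells was 42 UMIs in 1 control cell and 28 UMIs in 9 resistant-labelled cells. The receptors were at the limit of detection. Cxcr3 had no UMI in the 64, 3 and 13 T cells, which allows up to 27.6, 319 and 51.9 CPM, limits that the 3 cells of the sensitive-labelled library leave widest. Cxcr6 was present in T cells with 7, 4 and 8 UMIs, in 4 of 64, 1 of 3 and 3 of 13 cells.

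**Figure D5:**
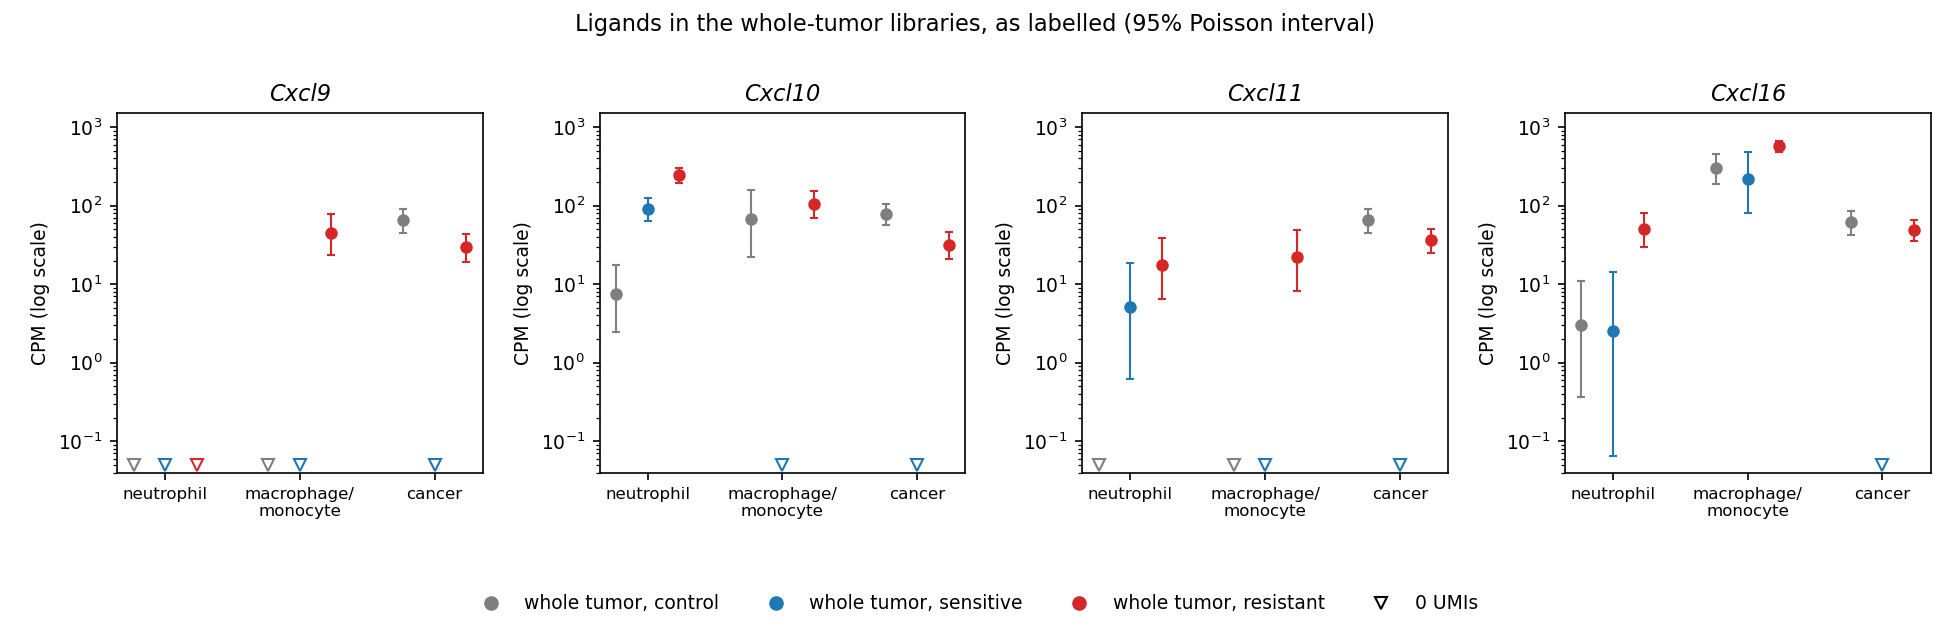
Level (CPM, log scale) of the 4 ligands in neutrophils, macrophages or monocytes and cancer cells of the whole-tumor libraries labelled control (gray), sensitive (blue) and resistant (red), with 95% Poisson intervals, open triangles marking 0 UMIs. Neutrophil Cxcl10 is at 7.58, 91.7 and 243 CPM, and the sensitive-labelled library shows 0 UMIs for cancer cells, of which it had 4.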

How the data were processed

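Single-cell libraries were made in droplets. The authors aligned reads to mm10 with Cell Ranger and deposited UMI counts per gene and barcode without normalization. Per the file headers, Cell Ranger 3.0.1 produced the whole-tumor and 6.0.0 the T cell matrices, and since their feature lists differ the sets were never compared. Though the rule for the members uses no measured value, members and gene lists were chosen with earlier results of these data known.

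A minimum of 500 genes and a maximum of 10% mitochondrial UMIs applied to cells of the T cell libraries, and 200 genes and 20% to whole tumor (mitochondrial features there held 0 UMIs). Each cell took the lineage with the highest mean log(1 + UMIs per 10000) over its markers, with at least 2 markers seen. A cell with at least 3 markers of another lineage at 0.5 or more of that mean was left out as mixed, which also stood in for doublet removal, and no doublet caller was run. A likelihood over all genes gave 99.1% and 99.4% of gated T cell library cells the same lineage. Counts were summed per lineage and library as CPM. Genes were counted as higher or lower past 1.5-fold, among genes with at least 100 UMIs over both libraries or cell sets. A few list genes are counted but not reported here by name. Named genes were the members, genes of 4 lists past that fold, and the 5 closest profiles per member (at least 200 UMIs). Runx3, Adam10, Adam17, macrophage Irf1 and Gbp2, and Ciita and Zfp683 under the UMI minimum were named outside this rule, after their values were seen, as were overlapping genes. A count of 0 was bounded by 3 counts. Scripts were tested on simulated counts. Python 3.11.15, numpy 2.4.6, scipy 1.17.1 and pandas 2.3.3 were used. Groups came from the library titles. Alternatives covered the mitochondrial limit, mixed cells, lineage calls, scaling, weighting, thinning to 1000 UMIs (seed 7) and, chosen after seeing the data, removal of the 5 top cells.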

Additional observations from a re-analysis of the deposited data

Results flagged for a closer look

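Several ratios of the T cell libraries (sensitive over resistant) went one way in one cell type and the other way in another, each with an interval that excludes 1. The difference was not tested in any of them, since each side was 1 library. Cxcl9 was at 1.68 in fibroblasts and 2.69 in cancer cells but at 0.540 in macrophages or monocytes. Its share ratios at equal depth were 0.750 (0.400 to 1.40) in fibroblasts and 0.645 (0.341 to 1.22) in macrophages or monocytes, and both include 1. Cxcl10 was at 3.42 in neutrophils, 3.58 in fibroblasts and 1.38 in cancer cells but at 0.796 in T cells and 0.809 in macrophages or monocytes. Within the latter, cells with C1q genes were at 0.709 and those low in C1q at 1.47. Cxcr6 was at 1.32 in T cells and 0.548 in fibroblasts, the latter from 87 and 127 UMIs. The part of free RNA in the fibroblast Cxcr6 ratio was not tested. Without the 5 highest cells of each library the T cell value of Cxcl10 was 0.896 (0.721 to 1.11), the macrophage value 0.845 (0.680 to 1.05) and the cancer cell value 1.42 (0.885 to 2.31), all with intervals that include 1. The fibroblast value was then 2.79 (2.38 to 3.27) and the neutrophil value 1.95 (1.40 to 2.72). In neutrophils the Cxcl10 share ratio at equal depth was 0.994 (0.531 to 1.86).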

How the results depend on the processing

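Of 110 alternatives to 14 results, 91 gave a value within the main interval, 18 moved it and 1 reversed it, a reversal being counted only where the main interval excludes 1. The Cxcl9 ratio in dendritic cells, whose main interval includes 1 (0.947 to 2.32), also crossed 1 and is counted as moved. The Cxcr3 ratio lay between 2.001 and 2.29 in T cells and between 2.38 and 2.75 in CD8+ T cells. Scaling by the median gene ratio moved Cxcr6 to 1.20 in T cells and 1.33 in CD8+ T cells. The Cxcr6+ share ratio in CD8+ T cells was 1.01 with no thinning, 1.14 with thinning to 2000 UMIs and 1.05 with 2 UMIs for a positive cell. In macrophages or monocytes Cxcl10 was 0.978 with lineages from a likelihood, and 0.664 with cells thinned to 1000 UMIs, which gave 0.836 for Cxcl16. In dendritic cells Cxcl9 was 2.32 as a mean over cells, 2.71 (0.311 to 32.5) with thinning and 0.568 (0.0108 to 7.07) without the 5 top cells. Cxcl16 there was 1.36 as a mean over cells and 0.793 without the 5 top cells. In fibroblasts Cxcl10 was 2.22 as a mean over cells, 2.71 with thinning and 2.79 without the 5 top cells, and Cxcl16 was 1.74 as a mean over cells and 2.23 without the 5 top cells. In cancer cells thinning reversed Cxcl10 to 0.881. The causes were not tested. Removing the 5 top cells was chosen after seeing the data. No paired analysis was possible because each group had 1 library, and for the same reason no replicate could be left out.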
